A study of Mus musculus with 68 samples.

Results

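The genes described here are 43 DNA replication genes of the mouse, followed through embryos made by somatic cell nuclear transfer (SCNT) and through fertilized blastocysts injected with morpholinos. They were chosen by name, as the core proteins of the replication fork and of origin licensing, and all 43 were found, each on 1 row, among the 24421 gene symbols of every library. Nuclei of cumulus cells (CCs), the somatic cells around the egg, were put into enucleated metaphase II oocytes of BDF1 females, a C57BL/6j by DBA/2 hybrid, which were then activated with strontium in the presence of cytochalasin B and had no further treatment. RNA was sequenced by Smart-seq2, which copies polyadenylated RNA, from 3 libraries of CCs, from 5 libraries at the 4-cell stage (4C) and from 6 libraries at each of 6 and 14 h post activation (hpa), the early 2-cell (E2C), late 2-cell (L2C), 8-cell (8C) and morula stages, and in blastocysts for the inner cells (inner cell mass, ICM) and for the outer layer (trophectoderm, TE). A second set of 12 libraries holds the ICM and TE of fertilized blastocysts whose zygotes were injected with a morpholino (MO) against Max, a morpholino against Mcrs1 or, as the protocol has it, a random control morpholino, with 2 libraries per group. Per the methods these zygotes came from C57BL/6j parents, unlike the oocytes used for SCNT. Per the paper the concentration injected differed between the Max, Mcrs1 and control morpholinos and was highest for the control. Target and dose of a morpholino therefore cannot be told apart in the comparisons with the control. The control libraries are titled control but their treatment field reads untreated, so an injection of these embryos rests on the protocol. Each library was made from 10 blastomeres, as the protocol states. The protocol speaks of 3 replicates per stage where most stages hold 6. The paper's legends call the SCNT samples of its expression panels biologically independent and the morpholino samples biological replicates. The labels do not say which libraries came from separate collections of embryos. The p-values below therefore measure the spread between libraries, and how much of it is technical is not known.

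Replication begins where the origin recognition complex (Orc1 to Orc6) sits on DNA. Cdc6 and Cdt1 load the ring of Mcm2 to Mcm7 there, and geminin, the product of Gmnn, holds Cdt1 back so that an origin is licensed only before S phase. Cdc45 and the GINS complex (Gins1 to Gins4) turn the ring into the active helicase with the help of Mcm10. DNA polymerase alpha and primase (Pola1, Pola2, Prim1 and Prim2) start each strand, polymerases delta (Pold1, Pold2) and epsilon (Pole, Pole2) extend it on the PCNA clamp that Rfc1 to Rfc5 load, RPA (Rpa1 to Rpa3) covers single-stranded DNA, and Fen1 and Lig1 join the Okazaki fragments. Ribonucleotide reductase (Rrm1, Rrm2) and thymidylate synthase (Tyms) supply the nucleotides. An oocyte stores RNA for many of these proteins, and an embryo later replaces that store by its own transcription.

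Values are TPM as deposited, where the loci assembled in a library sum to 1000000 and the reference genes took between 30.4% and 94.4% of that sum. Depth, taken as coverage divided by FPKM, was between 1.00 and 5.17 aligned gigabases, and between 6177 and 11771 genes per library reached 1 TPM. Changes were tested with limma on log2(TPM + 1), where a change of a low gene is understated, and a gene was called when it changed at least 2-fold with a Benjamini-Hochberg adjusted p under 0.05 over all genes of the fit. Changes are given with the standard error (SE). TPM is a share of the RNA of a library, so fewer cells of a type and less RNA per cell cannot be told apart, nor can a loss of a transcript and a gain of others. Of 5 genes used by every cell, Ldha was below 1 TPM in 13 of the 68 libraries and Tuba1b in 2. Rpl3, Tbp and Pgk1 were each below it in 1. At 6 hpa 4 of the 5 had a median of at least 1 TPM, so a low value can also belong to a stage. Where 1 library alone is low, the gene may have been missed there. The libraries numbered 1 to 3 stood apart from those numbered 4 to 6 at several stages. Reference genes took 44.0% to 53.1% of the TPM in 4C replicates 1 to 3 and 73.5% to 75.6% in replicates 4 and 5, and SCNT ICM replicates 1 to 3 held 6177 to 6771 genes at 1 TPM or more where replicates 4 to 6 held 9011 to 10032. L2C replicate 1 had the lowest reference share, 30.4%. The labels do not say what separates the numbers, and the counts of called members are therefore given for both sets of numbers where these differ. Where no share of all genes stands beside a count from 1 set or from other scaling, that count cannot be set against all genes. Rescaling TPM over the reference genes shifted the median change of all genes by -0.24 to 0.27 on the log2 scale, depending on the comparison, and quantile normalization by -0.27 to 0.41. Summed TPM of 8 cumulus markers was 1746 to 2989 in CCs and at most 60.4 in any SCNT library, with Foxl2, Fshr and Has2 low in CCs themselves. Summed TPM of 6 oocyte markers was 4173 to 8089 at 6 hpa and 7.72 to 18.1 at 8C. At the blastocyst the lineages were not cleanly separated, since SCNT ICM libraries held 1932 to 8403 TPM of 6 TE markers against 5129 to 16075 in SCNT TE.

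Promoters were looked up because licensing and fork genes are textbook targets of the E2F factors and because Max, the target of a morpholino, binds the E-box. Of the 43 genes, 35 have an entry among the RefSeq promoters of GRCm38.p6, which hold 250 bases before and 50 bases after the start, and Gmnn, Gins1, Gins2, Gins4, Mcm4, Pole, Prim2 and Rfc2 have none. The E2F letters TTTCCCGC, TTTCGCGC, TTTGGCGC or TTTGCCGC, on either strand, stood in 14 of the 35 (40.0%), where 2.60% of all 27025 genes with a promoter had them. The E-box CACGTG stood in 7 of the 35 (20.0%), against 8.09% of all genes. Shown here are the stretches, 5′ to 3′ and with the letters in capitals, of 4 genes of licensing and the helicase and of Pola1, which changed after injection of either morpholino, and then the E-box of Fen1, Tyms and Rpa1. From 6 hpa to 8C Fen1 and Tyms were called higher and Rpa1 was called lower. A match on the other strand reads as its reverse complement, and the capitals of Mcm5 and Mcm6 cover overlapping matches on both strands. RefSeq's start of a gene can differ from that of the deposited gene span, and the stretch of Cdc6 lies inside that span and the stretch of Fen1 partly inside it.
Cdc6 (chr11:98907983-98908050, plus strand): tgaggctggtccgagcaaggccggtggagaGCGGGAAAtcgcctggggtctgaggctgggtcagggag
Mcm5 (chr8:75109330-75109397, plus strand): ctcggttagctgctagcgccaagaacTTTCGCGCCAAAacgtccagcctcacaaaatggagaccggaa
Mcm6 (chr1:128359774-128359841, minus strand): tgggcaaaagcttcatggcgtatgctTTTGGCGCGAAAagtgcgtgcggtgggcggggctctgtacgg
Mcm7 (chr5:138172011-138172078, minus strand): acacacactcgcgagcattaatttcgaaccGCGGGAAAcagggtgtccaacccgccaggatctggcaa
Pola1 (chrX:93632256-93632323, minus strand): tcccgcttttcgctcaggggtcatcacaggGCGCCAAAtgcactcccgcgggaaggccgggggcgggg
Fen1 (chr19:10203922-10203969, minus strand): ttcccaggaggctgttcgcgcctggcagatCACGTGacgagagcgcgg
Tyms (chr5:30073651-30073716, minus strand): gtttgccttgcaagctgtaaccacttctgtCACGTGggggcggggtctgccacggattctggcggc
Rpa1 (chr11:75348416-75348481, minus strand): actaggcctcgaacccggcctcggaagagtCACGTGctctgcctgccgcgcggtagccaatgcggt

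In CCs the 43 genes together held 1048 to 1147 TPM, and in every SCNT library they held more. Their sum was 4062 to 5129 TPM at 6 hpa, 3370.0 to 4247 at 14 hpa, 2922 to 4341 at E2C, 1321 to 3577 at L2C and 1784 to 3781 at 4C. It was 3416 to 4057 at 8C, 4242 to 6171 in morulae, 3536 to 5628 in the ICM and 3407 to 4613 in the TE. The median of the sum was 3267 TPM at L2C, 2387 at 4C, the lowest of the embryo groups, and 3769.6 at 8C. Rescaled so that the reference genes of each library sum to the same total, it was 5939 at L2C, 4476 at 4C and 4553 at 8C, so 4C was still lowest but nearly level with 8C. The genes that led the sum were not the same throughout. At 6 hpa, Gmnn, Rpa3, Orc6, Orc5 and Pcna were the highest genes, with medians of 1277, 765, 675, 544 and 396 TPM. In the ICM the highest were Rrm2, Pcna, Mcm6, Rpa2 and Gmnn, with 409.6, 291, 266, 259 and 221 TPM. The number of members with a median of at least 10 TPM was 21 in CCs, 28 at 6 hpa, 23 at E2C, 36 at 4C and 41 in morulae and the ICM. Among the 9 embryo groups the median was highest at 6 hpa for 8 members (Orc1, Orc5, Orc6, Mcm2, Pola1, Prim2, Pcna and Rfc1) and in the ICM for 19, which included Mcm4 to Mcm7, Mcm10, Rfc2, Rfc3 and Rfc5, Rpa1 and Rpa2, Lig1, Fen1, Rrm1 and Tyms.

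**Figure D1:**
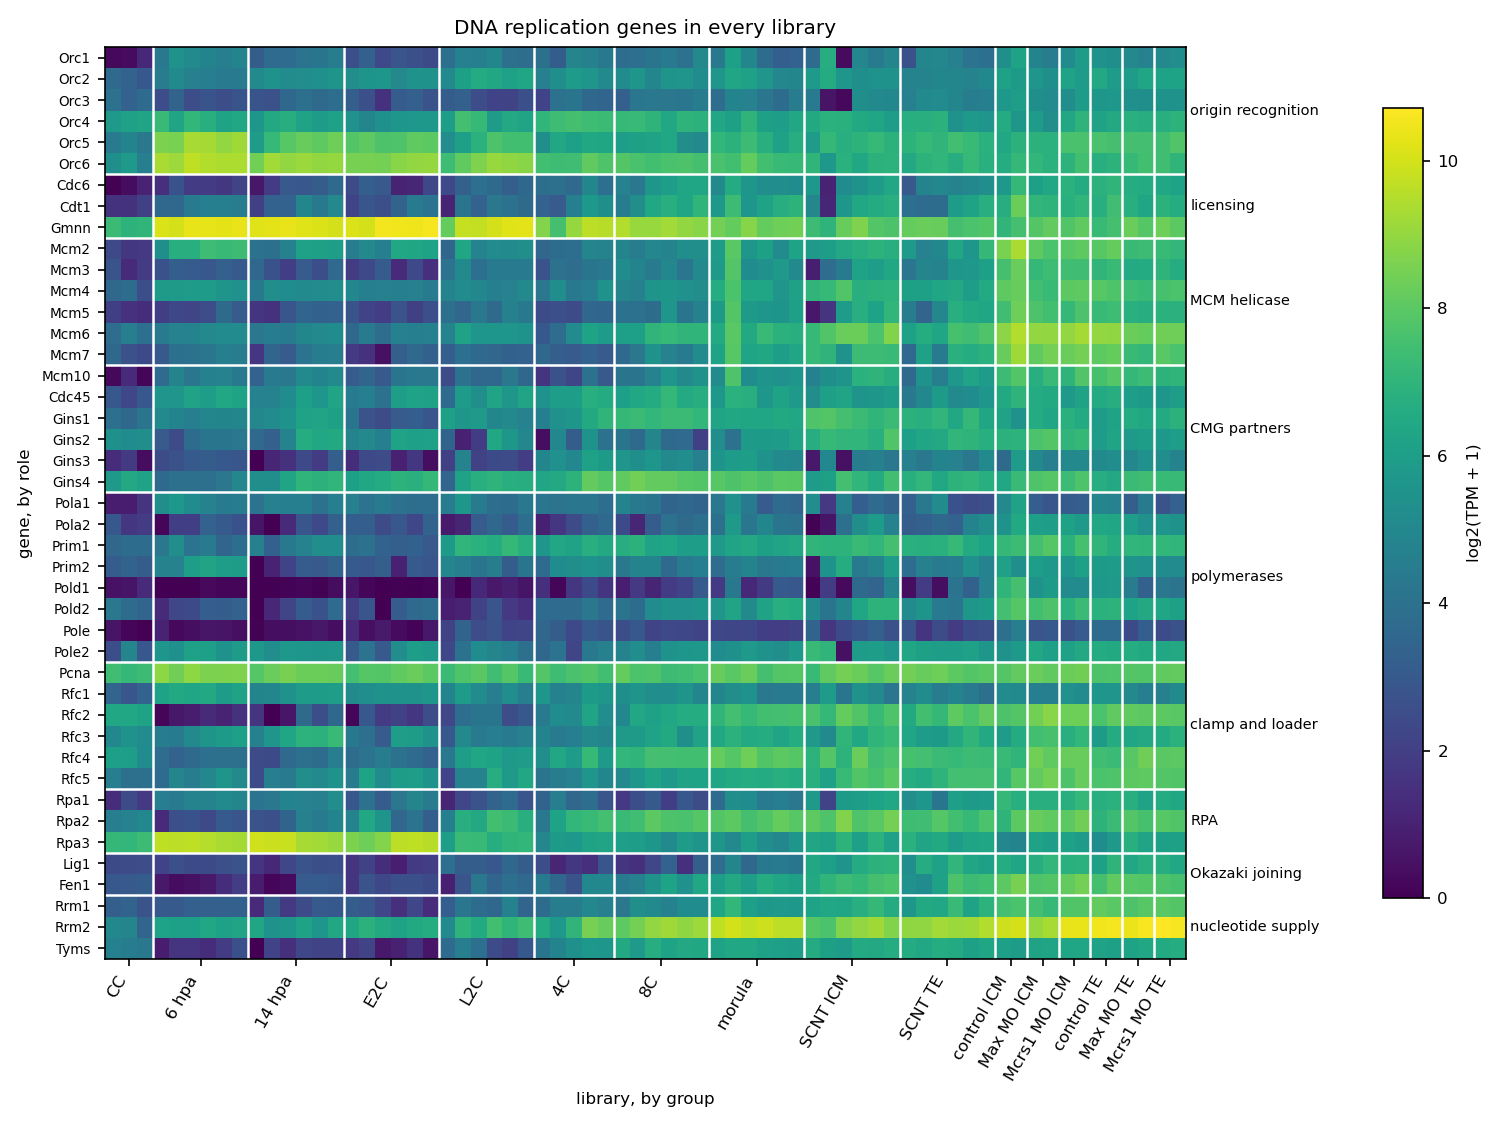
Each row is a DNA replication gene, grouped by role, and each column is 1 of the 68 libraries, grouped by stage or injection, with the colour giving log2(TPM + 1). The bright rows of Gmnn, Rpa3, Orc5 and Orc6 on the left fade to the right, while those of Rrm2, Rfc2, Rfc4, Rpa2, Mcm6 and Mcm7 brighten, and Pold1 and Pole are dark at the early stages.

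The embryo at 6 hpa was compared with CCs to see which replication transcripts the reconstructed oocyte held beyond those of the donor cell type. Of the 43 members 20 were higher at 6 hpa, where 25.8% of all genes were, and 6 were lower, where 35.6% were. The median change was 1.05 for the members and -0.28 for all genes tested. Higher were 4 of the 6 origin recognition genes, all 3 licensing genes, Mcm2 and Mcm4, Mcm10, Cdc45 and Gins3, Pola1, Prim2 and Pole2, Pcna and Rfc1, Rpa1 and Rpa3, and Rrm2. Lower were Gins4, Rfc2, Rfc4, Rpa2, Fen1 and Tyms. Subunits of 1 complex thus differed in polyadenylated RNA, with Rpa1 and Rpa3 above CCs and Rpa2 below. Protein and RNA that is not polyadenylated were not measured. Replicates 1 to 3 alone gave 16 higher and 8 lower members, and replicates 4 to 6 alone gave 26 and 8.

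Mcm2, a subunit of the helicase, encoded on chromosome 6 of mm10 from 88883474 to 88898780, had 4.10, 2.34 and 2.46 TPM in CCs and 39.3 to 166 TPM with a median of 128 at 6 hpa. Its log2 fold change was 4.84 (SE 0.54, limma adjusted p = 3.1e-11). Orc5, an origin recognition subunit, encoded on chromosome 5 of mm10 from 22486489 to 22550331, had 20.0, 27.3 and 18.8 TPM in CCs and 375 to 630.4 TPM with a median of 544 at 6 hpa. Every embryo lay far above every CC library for both genes, and the change of Orc5 was 4.48 (SE 0.39, limma adjusted p = 9.2e-15). Orc1, a subunit that binds ATP, was nearly absent from CCs with 0.188, 0.227 and 1.39 TPM and had 18.9 to 42.8 TPM with a median of 27.3 at 6 hpa, a change of 4.24 (SE 0.64, limma adjusted p = 6.9e-08). Gmnn, on chromosome 13 of mm10 from 24751845 to 24761937, had 157, 121 and 127 TPM in CCs and 1043 to 1327 TPM with a median of 1277 at 6 hpa, with a log2 fold change of 3.17. The largest fall was that of Rfc2, a clamp loader subunit, encoded on chromosome 5 of mm10 from 134582690 to 134598328, with 85.6, 84.8 and 71.2 TPM in CCs and 0.0963 to 1.86 TPM with a median of 0.888 at 6 hpa. The ranges did not overlap and the change was -5.43 (SE 0.54, limma adjusted p = 7.2e-13). Tyms followed, with 25.3, 21.5 and 18.4 TPM in CCs and 0.794 to 5.10 TPM with a median of 2.18 at 6 hpa, a change of -2.82 (SE 0.42, limma adjusted p = 6.4e-08). Rpa2, on chromosome 4 of mm10 from 132768360 to 132778746, had 23.4, 26.0 and 30.8 TPM in CCs and 1.40 to 7.30 TPM with a median of 5.34 at 6 hpa, and changed by -2.31 (SE 0.54, limma adjusted p = 1.8e-04). No CC library overlapped the embryos for Tyms or Rpa2 either.

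Within the 1-cell stage few members moved. At 14 hpa Gins4 and Rpa2 were higher than at 6 hpa and Orc5, Mcm2 and Prim2 were lower, 2 and 3 members where 6.17% and 5.02% of all genes were called, and the median change was -0.18 for the members and 0.01 for all genes tested. Prim2, the large subunit of primase, had 26.2 to 76.9 TPM with a median of 59.3 at 6 hpa and 0 to 9.52 TPM with a median of 5.18 at 14 hpa. It fell in all libraries below the lowest value at 6 hpa, with a change of -3.50 (SE 0.55, limma adjusted p = 3.5e-06). Orc5 had 58.9 to 327 TPM with a median of 254 at 14 hpa, also below every library at 6 hpa, and changed by -1.38 (SE 0.32, limma adjusted p = 0.0014). Gins4, a GINS subunit, went the other way, with 11.6 to 29.8 TPM with a median of 14.6 at 6 hpa and 38.7 to 131 TPM with a median of 95.6 at 14 hpa, and changed by 2.18 (SE 0.37, limma adjusted p = 1.3e-05). Rescaling gave 4 higher and 3 lower members. So did the replicate number as a block, which pairs the libraries here and added Rfc2 and Rfc3 to the higher members. Among all called genes 55.1% were higher in the fit above, 66.8% after rescaling and 54.0% with the block.

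The 2 sets of numbers differed at this step. In replicates 4 to 6 alone, 10 members were higher at 14 hpa, where 13.9% of all genes were, and Mcm2 and Prim2 were lower, where 3.53% were. The 10 were Orc3, Cdc6, Gins1, Gins2, Gins4, Prim1, Rfc2, Rfc3, Rpa2 and Fen1. In replicates 1 to 3 only Gins4 was higher, against 2.61% of all genes, and Orc5, Mcm2, Prim2 and Rfc1 were lower, against 4.93%. Fen1, the flap nuclease of Okazaki fragments, showed this split, with 0.756, 0.128 and 0.237 TPM in 14 hpa replicates 1 to 3 and 7.41, 7.69 and 6.71 TPM in replicates 4 to 6. At 6 hpa its 6 libraries held 0.266 to 2.90 TPM with a median of 0.679.

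From 14 hpa to E2C no member rose and Gins1, Rfc3 and Prim1 fell, where 2.9% of all genes were higher and 3.1% lower. Median changes were -0.23 for the members and 0.12 for all genes tested. Gins1, a GINS subunit, had 30.2 to 76.7 TPM with a median of 55.5 at 14 hpa and 4.62 to 16.9 TPM with a median of 6.91 at E2C. The stages did not overlap and the change was -2.61 (SE 0.28, limma adjusted p = 1.9e-09). In replicates 4 to 6 alone 11 members fell at this step, against 5.47% of all genes, and none rose, against 0.552%. The 11 were Orc1, Cdc6, Mcm3, Gins1, Gins3, Prim1, Rfc2, Rfc3, Rpa2, Rrm1 and Tyms. Replicates 1 to 3 alone gave 4 falls, against 2.91%, and the rises of Rpa2 and Fen1, against 9.71%. Rpa2 was thus called in opposite directions in the 2 sets. It had 5.72, 5.09 and 10.0 TPM at 14 hpa and 26.7, 84.8 and 46.1 TPM at E2C in replicates 1 to 3, and 24.3, 20.0 and 27.7 and then 10.6, 16.0 and 8.50 TPM in replicates 4 to 6.

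Of the steps from 6 hpa on, that from E2C to L2C called the most members, at a time when the embryo's own genome is transcribed strongly. At L2C 15 members were higher, where 23.6% of all genes were, and 4 were lower, where 11.1% were. The median change was 0.30 for the members and 0.26 for all genes tested, and the members' counts are to be read against this shift of all genes. The rises covered Orc1 and Orc4, Mcm3, Mcm5 and Mcm6, Gins1, Prim1, Prim2 and Pole, Rfc2 and Rfc4, Rpa2, Lig1, Rrm1 and Tyms. The falls were those of Orc5, Gins2, Rpa1 and Rpa3, and no licensing gene was called. Rescaling gave 19 rises and 2 falls, replicates 1 to 3 alone 10 and 4, and replicates 4 to 6 alone 16 and 6. Among all called genes 68.0% rose in the fit above and 79.2% after rescaling.

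Prim1, the catalytic subunit of primase, encoded on chromosome 10 of mm10 from 128015215 to 128030030, had 6.87 to 14.9 TPM with a median of 9.26 at E2C and 56 to 139 TPM with a median of 112 at L2C. With a change of 3.25 (SE 0.27, limma adjusted p = 5.5e-14) it was the largest rise of this step, and the stages were far apart. Mcm3 had 1.44 to 7.67 TPM with a median of 3.44 at E2C and 14.3 to 34.6 TPM with a median of 20.4 at L2C, a change of 2.33 (SE 0.52, limma adjusted p = 2.5e-04), and was not called in replicates 1 to 3 alone. Gins1 returned from its low values at E2C to 25.8 to 66.6 TPM with a median of 41.4, with a change of 2.29 (SE 0.28, limma adjusted p = 2.4e-09). Rpa3, the smallest RPA subunit, encoded on chromosome 6 of mm10 from 8255936 to 8259141, had 332 to 825 TPM with a median of 593 at E2C and 63.9 to 157 TPM with a median of 131 at L2C. Its change of -2.21 (SE 0.24, limma adjusted p = 1.7e-10) was the largest of the 4 falls, and every L2C library lay below every E2C library. Orc5 had 214 to 278 TPM with a median of 246 at E2C and 37.6 to 212 TPM with a median of 146 at L2C, without overlap, a change of -1.12 (SE 0.32, limma adjusted p = 0.0039), which was not called after rescaling, without L2C replicate 1 or 2, or in replicates 4 to 6 alone. Rpa2 stood at 24.1 to 175 TPM with a median of 105 at L2C, so that the RPA subunits crossed, with Rpa3 falling and Rpa2 rising by 1.95 on the log2 scale.

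From L2C to 4C 5 members rose (Gins3, Gins4, Pold2, Rfc2 and Tyms), where 11.7% of all genes did, and Rpa3 and Lig1 fell, where 26.5% did. At the median the change was 0.04 for the members and -0.33 for all genes tested. The split of the calls turned on the scaling, with 4 rises and 5 falls after rescaling and 12 and 3 after quantile normalization. Among all called genes 30.7% rose in the fit above, 22.5% after rescaling and 51.7% after quantile normalization. Gins3 had 2.89 to 27.0 TPM with a median of 3.87 at L2C, where replicate 2 stood apart, and 29.3, 41.8, 31.0, 69.2 and 57.0 TPM in the 5 libraries at 4C, a change of 2.84 (SE 0.56, limma adjusted p = 3.8e-05). Pold2, the second subunit of polymerase delta, had 0.819 to 6.19 TPM with a median of 2.07 at L2C and 12.4, 12.5, 12.7, 18.1 and 12.4 TPM at 4C, a change of 2.17 (SE 0.55, limma adjusted p = 0.001). Neither gene overlapped between the stages. Rfc2 had 3.91 to 16.9 TPM with a median of 10.4 at L2C and 20.1, 35.9, 33.2, 74.8 and 37.4 TPM at 4C, also without overlap, a change of 1.91 (SE 0.46, limma adjusted p = 6.3e-04). Lig1, the ligase of Okazaki fragments, had 6.48 to 14.2 TPM with a median of 7.94 at L2C and 4.88, 1.25, 2.36, 1.69 and 6.01 TPM at 4C, below every L2C library, a change of -1.38 (SE 0.35, limma adjusted p = 0.0011) that was not called after quantile normalization. Replicates 1 to 3 alone gave 2 rises and 3 falls, against 7.74% and 17.9% of all genes, and replicates 4 to 6 alone 13 and 4, against 18.2% and 30%.

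From 4C to 8C 9 members rose, where 11.6% of all genes did, and none fell, where 8.39% did. The rises were those of Cdc6, Mcm6 and Mcm7, Mcm10 and Gins1, Rfc3 and Rfc4, Rrm2 and Tyms, and the median change was 0.64 for the members and 0.03 for all genes tested. Rescaling left 3 rises and gave 1 fall, and quantile normalization 5 and 1. Among all called genes 58.0% rose in the fit above, 32.1% after rescaling and 52.3% after quantile normalization. Mcm10, encoded on chromosome 2 of mm10 from 4990724 to 5012791, had 2.06, 5.26, 3.74, 15.4 and 7.09 TPM at 4C and 16.5 to 48.2 TPM with a median of 29.1 at 8C, a change of 2.16 (SE 0.46, limma adjusted p = 4.1e-04). Mcm7 had 10.9, 8.60, 7.39, 9.46 and 7.5 TPM at 4C and 11.6 to 44.1 TPM with a median of 23.6 at 8C, a change of 1.36 (SE 0.51, limma adjusted p = 0.046) that was not called when any of the 5 libraries at 4C was left out. Gins1 had 23.9, 41.8, 49.7, 90.3 and 130.4 TPM at 4C and 135 to 159 TPM with a median of 149 at 8C, a change of 1.36 (SE 0.29, limma adjusted p = 4.8e-04) that was not called after rescaling. None of the 3 overlapped between the stages. Without 4C replicate 1 the number of called members was 5. Alone, replicates 1 to 3 gave 8 rises and no fall, and replicates 4 to 6 gave 9 rises and the fall of Gins2. Only Mcm6 and Mcm10 were called higher in both sets. Mcm7 was not called in replicates 1 to 3, nor Gins1 in replicates 4 to 6.

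From 8C to morula 6 members rose, where 9.05% of all genes did, and none fell, where 3.53% did, with a median change of 0.29 for the members and 0.19 for all genes tested. They were Mcm4 and Mcm7, Gins2, Rpa1, Lig1 and Rrm1. Rpa1, the large RPA subunit, encoded on chromosome 11 of mm10 from 75300259 to 75348383, had 2.45 to 7.12 TPM with a median of 4.81 at 8C and 12.3 to 39.4 TPM with a median of 21.7 in morulae, a change of 2.12 (SE 0.45, limma adjusted p = 6.4e-04). Lig1, on chromosome 7 of mm10 from 13277313 to 13311427, had 1.83 to 9.47 TPM with a median of 3.01 at 8C and 11 to 29.0 TPM with a median of 18.3 in morulae, a change of 1.95 (SE 0.34, limma adjusted p = 3.1e-05). Both stages were separate for both genes. Mcm7 had 64.3 to 241 TPM with a median of 77.1 in morulae, where replicate 2 was far above the rest, and changed by 1.90 (SE 0.48, limma adjusted p = 0.0047). Morula replicate 2 was also the highest morula for Mcm2, with 249 TPM against at most 73.2 in the others. Alone, replicates 1 to 3 gave 6 rises and no fall, and replicates 4 to 6 gave 4 rises and the fall of Orc1. Of the 6 members above, Mcm4 and Rrm1 were called only in replicates 1 to 3 and Gins2 only in replicates 4 to 6.

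**Figure D2:**
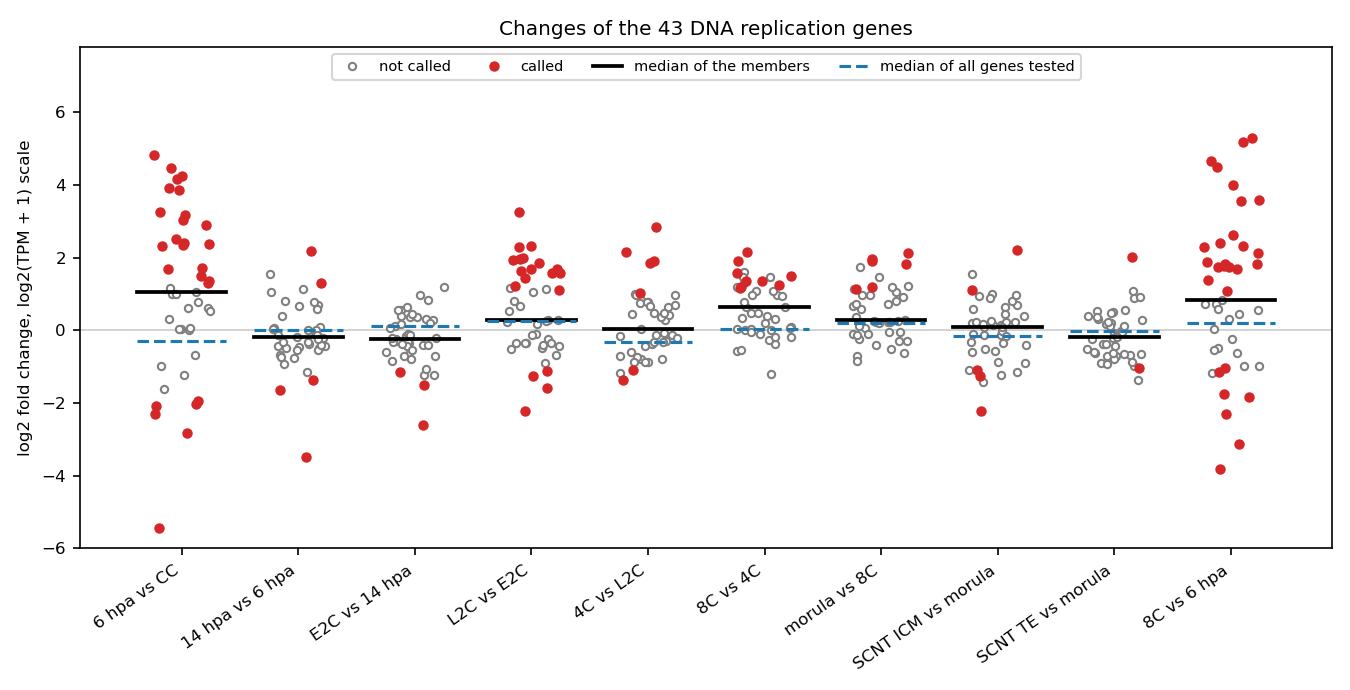
Each point is the log2 fold change of 1 of the 43 genes on the log2(TPM + 1) scale, filled where the gene was called, with the stages compared along the axis and the position of points within a column of no meaning. Solid lines give the median of the members and dashed lines that of all 12084 genes tested. The members sit above all genes most clearly from CCs to 6 hpa (1.05 against -0.28). From 6 hpa to 8C (0.84 against 0.21) and from 4C to 8C (0.64 against 0.03) they also do.

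Over the whole course from 6 hpa to 8C, in which stored RNA gives way to the embryo's own, 21 members were higher at 8C, where 36.1% of all genes were, and 7 were lower, where 31.2% were. The median change was 0.84 for the members and 0.21 for all genes tested. This comparison shares the 6 hpa libraries with that against CCs, so its values are set beside those above and not added to them. Lower at 8C were Orc5 and Orc6, Gmnn, Mcm2, Pola1, Rpa1 and Rpa3. Higher were Orc3, Cdc6 and Cdt1, Mcm3, Mcm5 and Mcm6, Gins1, Gins3 and Gins4, Prim1, Pold1, Pold2 and Pole, Rfc2, Rfc4 and Rfc5, Rpa2, Fen1, and all 3 nucleotide supply genes. Replicates 1 to 3 alone gave 17 higher and 5 lower, and replicates 4 to 6 alone 20 and 10.

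Rpa3 showed the largest fall, with 625 to 839.9 TPM with a median of 765 at 6 hpa, 33.5 to 65.2 TPM with a median of 55.1 at 8C and a change of -3.82 (SE 0.24, limma adjusted p = 2.9e-20). Orc5 had 32.5 to 83.6 TPM with a median of 65.1 at 8C, a change of -3.14 (SE 0.32, limma adjusted p = 9.3e-13). Rpa1 had 21.2 to 33.4 TPM with a median of 26.8 at 6 hpa and 2.45 to 7.12 TPM with a median of 4.81 at 8C, a change of -2.31 (SE 0.45, limma adjusted p = 1.1e-05). In all 3 the highest 8C library lay below the lowest at 6 hpa, and Rpa1 rose again in morulae. Rfc2 rose the most and had 31.4 to 98.9 TPM with a median of 84.4 at 8C, with a change of 5.30 (SE 0.44, limma adjusted p = 8.7e-16). Rpa2 reached 155 to 259.5 TPM with a median of 205 and Tyms 52.8 to 101 TPM with a median of 84.4. Rpa2 changed by 5.19 (SE 0.44, limma adjusted p = 1.4e-15) and Tyms by 4.65 (SE 0.34, limma adjusted p = 1.1e-17), and no library of 6 hpa overlapped 8C for these 3 genes. Gmnn, still the highest member at 8C with 447 to 721 TPM with a median of 538, fell by 1.15 on the log2 scale. Among members whose promoter holds the E2F letters 8 of 14 were higher at 8C and 1 was lower, with a median change of 1.53, and among the 21 whose promoter does not, 9 were higher and 5 lower, with a median of 0.73. Among the 7 with the E-box 2 were higher and 1 was lower, with a median change of 0.31. Among the 28 without it 15 were higher and 5 lower, with a median of 1.22. No share of all genes with the E2F letters or the E-box is given, and the order of such medians was not the same at every step. A part of these letters in the changes was not tested.

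**Figure D3:**
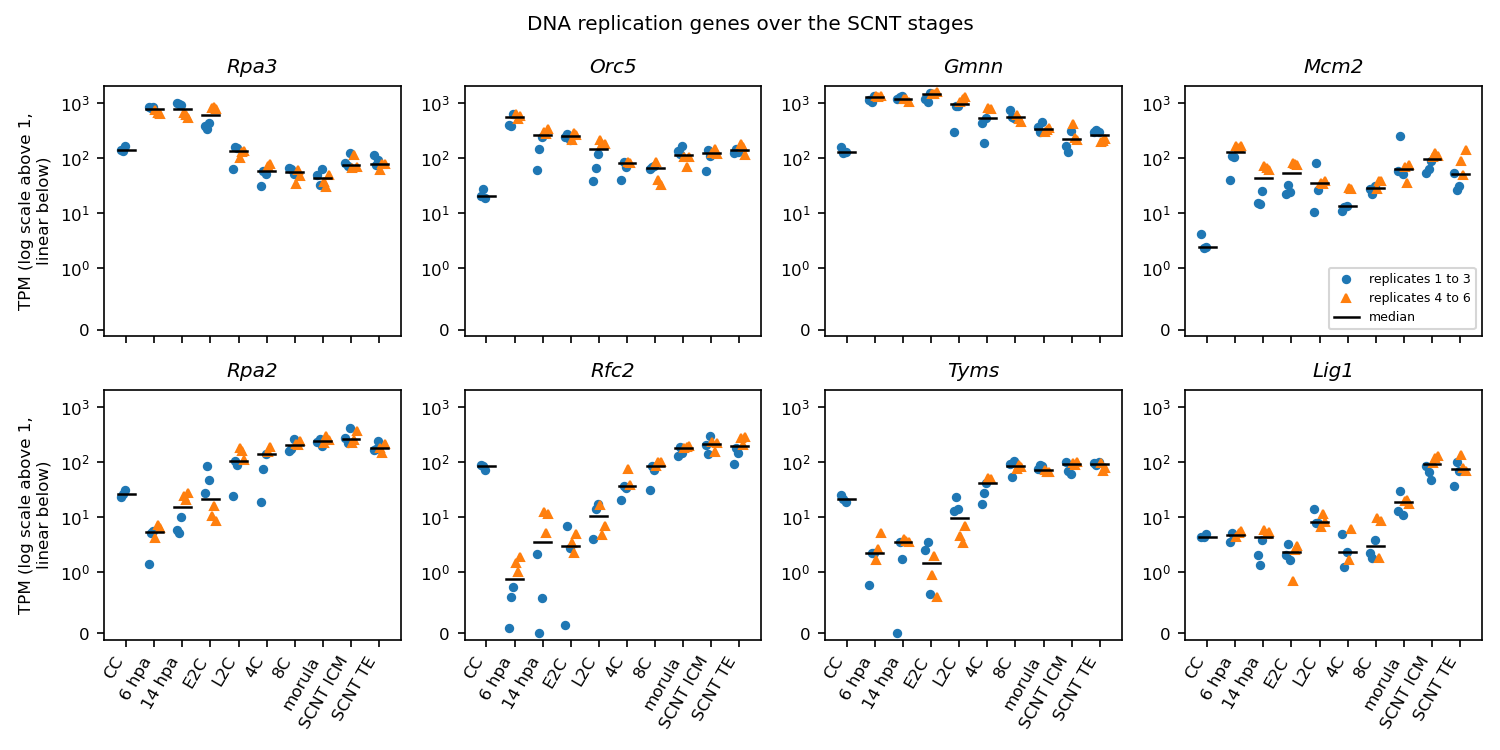
TPM of 8 DNA replication genes in CCs and SCNT embryos, 1 point per library, with replicates 1 to 3 as circles, 4 to 6 as triangles and a bar at the median, on an axis that is logarithmic above 1 and linear below. In the upper row Rpa3 and Gmnn stay high to E2C and then fall, Orc5 falls from 6 hpa and Mcm2 is lowest among embryos at 4C (median 13.6 TPM), while in the lower row Rpa2, Rfc2 and Tyms are high from 8C on and Lig1 from the morula.

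At the blastocyst few members differed from the morula. In the ICM Gins1 and Lig1 rose, where 8.93% of all genes did, and Gins3, Gins4 and Rrm2 fell, where 15.1% did, with a median change of 0.10 for the members and -0.15 for all genes tested. In the TE Lig1 rose, against 11% of all genes, and Gins4 fell, against 10.9%, with a median change of -0.18 for the members and -0.03 for all genes tested. Both comparisons use the same morula libraries. Lig1 had 46.1 to 126 TPM with a median of 89.7 in the ICM and 36.9 to 131 TPM with a median of 73.3 in the TE, above every morula, and its changes were 2.20 (SE 0.34, limma adjusted p = 9.4e-07) and 2.03 (SE 0.34, limma adjusted p = 4.7e-06). Gins1 had 75.2 to 91.7 TPM with a median of 81.9 in morulae and 129 to 233 TPM with a median of 173 in the ICM, a change of 1.1 (SE 0.28, limma adjusted p = 0.0019). Gins4 moved against it. It had 211 to 253 TPM with a median of 243 in morulae, 58.0 to 185 TPM with a median of 115 in the ICM and 85.8 to 135 TPM with a median of 115 in the TE, and its changes were -1.09 (SE 0.37, limma adjusted p = 0.023) and -1.03 (SE 0.37, limma adjusted p = 0.034). Rrm2, the regulated subunit of ribonucleotide reductase, encoded on chromosome 12 of mm10 from 24708254 to 24714146, had 805 to 1040.1 TPM with a median of 835 in morulae and 206 to 589 TPM with a median of 409.6 in the ICM, without overlap, a change of -1.25 (SE 0.32, limma adjusted p = 0.0026).

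These counts depended on the set of libraries. In ICM replicates 1 to 3, which held fewer detected genes, 9 members were lower than in the morula, against 23.8% of all genes, and 2 higher, against 5.84%. In replicates 4 to 6 no member was lower, against 7.92%, and 13 were higher, against 18.3%. Of the 43 genes, 37 to 41 reached 1 TPM in ICM replicates 1 to 3 and all 43 in replicates 4 to 6, and whether missed genes made the difference was not tested. Pold1, the catalytic subunit of polymerase delta, was called lower in replicates 1 to 3, with 0.0802, 2.62 and 0.198 TPM, and higher in replicates 4 to 6, with 12.2, 10.4 and 27.0 TPM. In the TE the counts were 4 lower and 1 higher in replicates 1 to 3, against 12.5% and 7.21% of all genes, and 1 lower and 5 higher in replicates 4 to 6, against 8.9% and 17.9%. Rescaling gave 4 higher and 3 lower members in the ICM, and quantile normalization 1 higher and 2 lower in the TE. Without SCNT ICM replicate 4, 5 or 6 the count in the ICM was 8 members in place of 5, and in the TE, where the call of Gins4 was lost in many alternatives, it was 1 in place of 2 without morula replicate 5 or SCNT TE replicate 1.

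Between the ICM and TE of SCNT blastocysts limma called none of the 43 genes, where 1.54% of all genes were higher in the ICM and 4.25% lower. At an unadjusted p under 0.05, 7 of the 43 members differed, and so did 2249 of all 12084 genes tested. The median difference was 0.13 for the members and -0.08 for all genes tested. Mcm4 had 107 to 224 TPM with a median of 125 in the ICM and 62.5 to 93.8 TPM with a median of 73.0 in the TE, a difference of 0.85 (SE 0.25, limma adjusted p = 0.033) that stayed under 2-fold although the libraries did not overlap. Orc2 did not overlap either, with a difference of 0.85. Mcm6, on chromosome 1 of mm10 from 128331591 to 128359656, had 146 to 409.8 TPM with a median of 266 in the ICM and 70.3 to 216 TPM with a median of 135 in the TE. Its difference of 1.01 (SE 0.36, limma adjusted p = 0.086) missed the threshold, and with the replicate number as a block, which pairs the libraries here, Mcm6 became the single called member (limma adjusted p = 0.018). Without SCNT ICM replicate 1, 4 or 6 there was 1 called member, and without replicate 5 there were 2.

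Against the donor cell type, 32 members were higher in the SCNT ICM, where 16.9% of all genes were, and none was lower, where 21% were. The median difference was 2.48 for the members and 0.00 for all genes tested. All 6 MCM genes, both Okazaki genes, all 3 nucleotide genes, 5 of 8 polymerase genes, 4 of 6 clamp and loader genes, 4 of 6 partners of the helicase (Mcm10, Cdc45, Gins1 and Gins3), 4 of 6 origin recognition genes, Cdc6 and Cdt1, and Rpa1 and Rpa2 were higher. Replicates 1 to 3 alone gave 26 higher and 1 lower, and replicates 4 to 6 alone 39 and 0. Mcm10 had 0.180, 1.40 and 0.145 TPM in CCs and 25.5 to 127 TPM with a median of 73.6 in the ICM, a difference of 5.46 (SE 0.54, limma adjusted p = 1.4e-12). Cdc6, the licensing ATPase, encoded on chromosome 11 of mm10 from 98907889 to 98923942, had 0.0414, 0.283 and 1.02 TPM in CCs and 1.08 to 84.3 TPM with a median of 47.8 in the ICM, a difference of 4.49 (SE 0.65, limma adjusted p = 9.9e-08). Mcm2 had 52.5 to 121 TPM with a median of 95.5 in the ICM, a difference of 4.47 (SE 0.54, limma adjusted p = 9.3e-10). No CC library reached the lowest ICM library in these 3 genes. Rfc2 and Gins4, both high in CCs, were not called, with differences of 1.29 and 0.64.

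Across the 8 steps from 6 hpa to the ICM and TE, 14 members were never called, namely Orc2, Orc3 and Orc6, Cdt1 and Gmnn, Cdc45, Pola1 and Pola2, Pold1 and Pole2, Pcna, Rfc1 and Rfc5, and Fen1. No such share of all genes is given, so this count too does not set the members apart from other genes. Between 6 hpa and 8C as a whole, however, Gmnn, Orc6, Orc3, Cdt1, Pola1, Pold1, Rfc5 and Fen1 were called. Pcna, the sliding clamp, encoded on chromosome 2 of mm10 from 132249286 to 132253180, was the most even of the abundant members, with stage medians between 193 TPM at L2C and 396 TPM at 6 hpa. Cdc45 had medians between 34.3 TPM in the TE and 94.3 TPM at 8C. Pold1 and Pole, the catalytic subunits of the replicative polymerases, were the lowest members at 6 hpa, 14 hpa and E2C, with medians of 0.0682 and 0.413 TPM at 6 hpa. At 8C they had medians of 2.50 and 4.09 TPM, while their partners Pold2 and Pole2 had 38.4 and 40.5 TPM at 8C. Pold1 was at 0 in 3 of 6 libraries at 6 hpa and under 1 TPM in all 6.

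Other genes of the pathway were counted in the same fit. Of 26 genes of origin firing and the fork, such as Cdc7 and Dbf4, 24 were tested, and from 6 hpa to 8C 6 rose and 10 fell, beside the 21 and 7 of the 43 members. Of 9 further nucleotide genes 4 rose and 1 fell, and of the 9 tested of 11 E2F and Rb family genes 1 rose and 5 fell. Of all genes tested 36.1% rose and 31.2% fell at this step.

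In the second experiment the targets were checked first. Max had 38 and 8.42 TPM in the 2 control ICM libraries and 6.82 and 0.443 TPM after Max MO. In the TE it had 34.5 and 28.5 TPM in the controls and 16.3 and 8.68 TPM after Max MO. Mcrs1 had 253 and 310.1 TPM in control ICM and 86.8 and 73.4 TPM after Mcrs1 MO, and in the TE 219 and 294 TPM in the controls and 41.1 and 45.5 TPM after Mcrs1 MO. The injected libraries lay below the controls in each case. With the other morpholino, Max had 14.4 and 9.25 TPM in the ICM and 17.6 and 15.7 TPM in the TE after Mcrs1 MO, and Mcrs1 had 218 and 242 and 206 and 194 TPM after Max MO. These too lay below both controls, except for Max in the ICM, where they overlapped. A low level of a target was thus also found with the morpholino against the other gene. A morpholino acts on the RNA's use and need not lower its amount. The 43 genes together held 6382 to 8854 TPM in control ICM, 6894 to 7164 after Max MO and 7414 to 8515 after Mcrs1 MO, and 6789 to 7403, 6609.5 to 6731 and 6786 to 7125 TPM in the TE. The ranges after either morpholino overlapped that of the controls in the ICM. In the TE the range after Mcrs1 MO overlapped it too, while that after Max MO lay below it. The control ICM libraries were unlike each other in lineage markers, with 354 TPM and 16011 TPM of the 6 TE markers, and the part of this in the changes below was not tested.

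After Max MO the ICM showed 4 higher members, where 8.65% of all genes were, and 4 lower members, where 15.1% were. At the median the change was -0.15 for the members and -0.21 for all genes tested. Pola1, the catalytic subunit of polymerase alpha, encoded on chromosome X of mm10 from 93304766 to 93632155, had 32.1 and 71.3 TPM in control ICM and 8.29 and 6.24 TPM after Max MO, a change of -2.58 (SE 0.52, limma adjusted p = 0.0055). Pold1, on chromosome 7 of mm10 from 44532744 to 44548815, had 130.4 and 187 TPM and then 45.1 and 57.3 TPM, a change of -1.60 (SE 0.38, limma adjusted p = 0.012). Mcm2 had 378 and 665 TPM and then 268 and 204 TPM, a change of -1.1 (SE 0.26, limma adjusted p = 0.012), and Orc1 changed by -1.09. In each of these the libraries of both groups were separate. A pair of clamp loader genes moved the other way. Rfc3 had 57.7 and 95.9 TPM in control ICM and 177 and 192 TPM after Max MO, a change of 1.30 (SE 0.31, limma adjusted p = 0.012). Rfc4 had 153 and 130.0 TPM and then 350.1 and 272 TPM, a change of 1.12 (SE 0.21, limma adjusted p = 0.0042). Rpa3 went from 31.3 and 27.4 TPM to 73.5 and 62.4 TPM, a change of 1.18 (SE 0.28, limma adjusted p = 0.012), and Gins4 rose by 1.02. Rescaling gave 2 higher and 5 lower members and quantile normalization 2 and 4, and a fit of only these 4 libraries called none. Leaving out either Max MO ICM library left 4 called members. Summed TPM of the TE markers was 2718 to 5828 after Max MO. That of 5 ICM markers was 571 to 601, where the controls had 792 to 916.

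After Mcrs1 MO the ICM showed 3 higher members (Orc5, Rfc4 and Rpa3), where 4.88% of all genes were, and 2 lower (Pola1 and Pold1), where 5.21% were. The median change was 0.16 for the members and -0.05 for all genes tested, and the control libraries are those of the comparison above. Pola1 had 7.59 and 8.34 TPM and Pold1 34.7 and 34.7 TPM. Their changes were -2.45 (SE 0.52, limma adjusted p = 0.017) and -2.14 (SE 0.38, limma adjusted p = 0.0095), and all these libraries lay below both controls. Rpa3 had 69.6 and 58.6 TPM, Rfc4 296 and 297 TPM and Orc5 198 and 201 TPM where the controls of Orc5 had 83.9 and 117 TPM. The changes were 1.1 (SE 0.28, limma adjusted p = 0.031) for Rpa3, 1.07 (SE 0.21, limma adjusted p = 0.013) for Rfc4 and 1.00 (SE 0.22, limma adjusted p = 0.018) for Orc5. None of the 3 rises was called after rescaling, which gave 0 higher and 3 lower members, and quantile normalization gave 1 and 3. Leaving out either Mcrs1 MO ICM library left no called member, and leaving out control ICM replicate 1 or 2 gave 10 or 8. A fit of only these 4 libraries called none. Summed TPM of the TE markers was 8048 to 11557 after Mcrs1 MO, and that of 5 ICM markers 262 to 573, where the controls had 792 to 916.

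In the TE Pold1 was the only called member after either morpholino. After Max MO no member was higher, where 1.04% of all genes were, and 1 was lower, where 1.45% were. After Mcrs1 MO the counts were the same, against 1.77% and 3.31%. Pold1 had 51.3 and 53.5 TPM in control TE, 22.3 and 8.99 TPM after Max MO and 18.6 and 15.8 TPM after Mcrs1 MO. Its changes were -1.81 (SE 0.38, limma adjusted p = 0.039) and -1.56 (SE 0.38, limma adjusted p = 0.038), with every injected library below both controls. Neither change was called once any of the 4 TE libraries of its comparison was left out. The median changes were -0.19 for the members and -0.19 for all genes tested after Max MO, and -0.15 for the members and -0.24 for all genes tested after Mcrs1 MO.

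**Figure D4:**
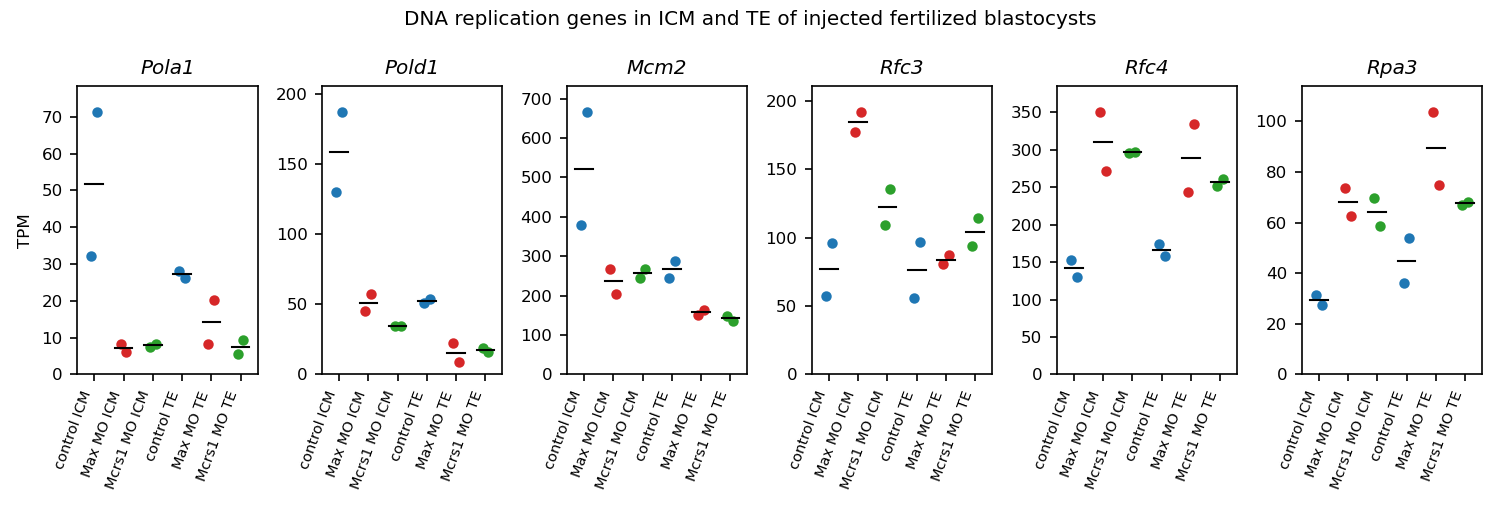
TPM of 6 DNA replication genes in the 12 libraries of fertilized blastocysts, 1 point per library with a bar at the mean of each pair, with control in blue, Max MO in red and Mcrs1 MO in green and each axis starting at 0. Pola1 and Pold1 lie lower in every injected ICM library than in the controls (Pold1 at most 57.3 TPM against at least 130.4), and Rfc4 and Rpa3 lie higher.

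The response was not shown to differ between the ICM and TE. The interaction term called no member and 0% of all genes for either morpholino with limma. At an unadjusted p under 0.05 there were 4 members and 1473 genes for Max MO, and 2 members and 972 genes for Mcrs1 MO. The members were Gins2, Rfc2, Rfc3 and Rrm2 for Max MO, with interaction terms of 1.04, 0.69, 1.12 and -0.79, and Orc5 and Pole2 for Mcrs1 MO, with 0.99 and 0.79. Rrm2 had 965 and 1062 TPM in control ICM and 519 and 641 TPM after Max MO, and 1424 and 1551 TPM and 1369 and 1563 TPM in the TE.

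Most members called lower had longer transcripts than those called higher. The longest transcript has 5346 bases for Pola1, 3496 for Pold1 and 3494 for Mcm2, but 682 for Rpa3, 1279 for Rfc4 and 1349 for Gins4, while Orc5, which was called higher, has 3742. Over the 43 genes the change went down with the logarithm of the length (Pearson's r across genes = -0.53 after Max MO and -0.46 after Mcrs1 MO in the ICM, and -0.61 and -0.58 in the TE), and genes of a library share its RNA, so these are descriptions. When a trend on length was removed from each library, an alternative added after the data were seen, Rfc3 was the only member of the 8 that was still called in the Max MO ICM, and Gins2, Rfc2 and Rfc5 joined it, which are also genes of the helicase and clamp loader. Rpa3 then changed by -0.02 (adjusted p = 0.97), Pola1 by -1.68 (adjusted p = 0.056) and Pold1 by -1.17 (adjusted p = 0.072). In the Mcrs1 MO ICM Orc5, Pola1 and Pold1 remained called, with changes of 1.19 (adjusted p = 0.017), -1.99 (adjusted p = 0.046) and -2.0 (adjusted p = 0.018). Neither change of Pold1 in the TE was called, with -1.50 (adjusted p = 0.085) after Max MO and -1.20 (adjusted p = 0.12) after Mcrs1 MO.

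**Figure D5:**
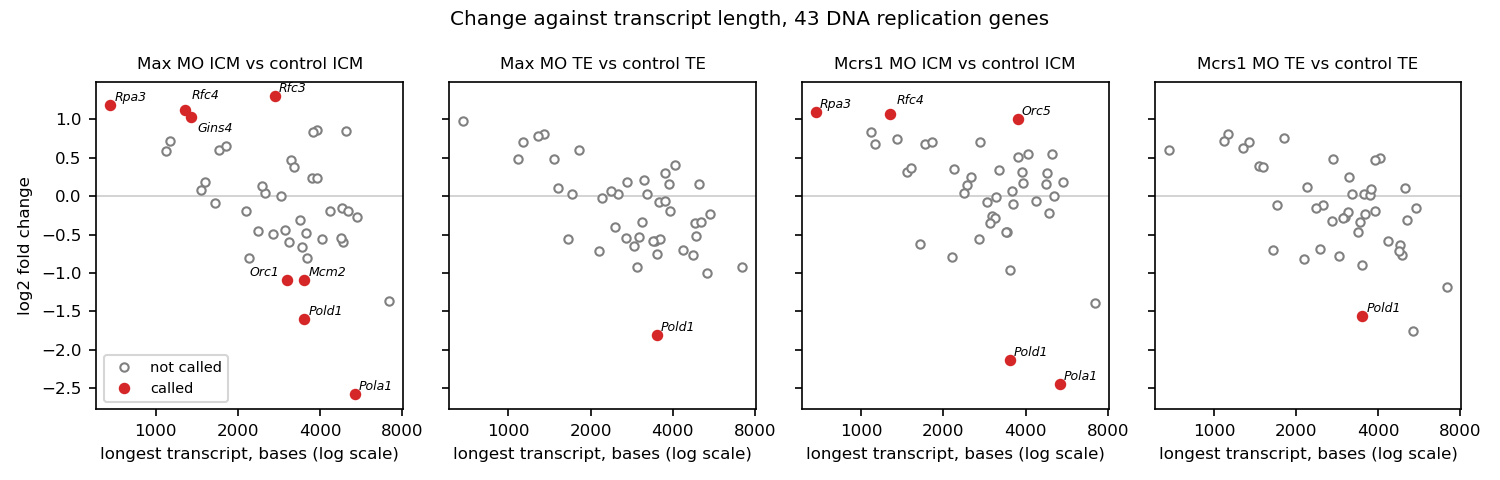
Each point is a DNA replication gene, with the length of its longest GENCODE transcript in bases on a logarithmic axis and its log2 fold change against control, filled and named where the gene was called. In all 4 panels short transcripts such as Rpa3 (682 bases) sit above 0 and long ones such as Pola1 (5346 bases) below.

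Of the 43 members 34 were called in no morpholino comparison. No such share of all genes is given, so this count does not set the members apart from other genes. The 34 include 5 of the 6 MCM genes, all 3 licensing genes, all 3 nucleotide supply genes, both Okazaki genes, Pcna and Rpa1 and Rpa2. Mcm6, the highest MCM gene, had 471 and 719 TPM in control ICM, 514 and 500.4 TPM after Max MO and 501 and 617 TPM after Mcrs1 MO. The 6 MCM genes together held 1777 to 2918 TPM in control ICM, 1549.6 to 1583 after Max MO and 1628 to 1896 after Mcrs1 MO. In the TE they held 1545 to 1609.7, 936 to 1000.4 and 1094 to 1169 TPM. Their sum thus lay below both controls in the Max MO ICM and in the TE after either morpholino, although Mcm2 in the Max MO ICM was the only call among them. Such separation was common with 2 libraries per group, as 28, 31 and 32 of the 43 members showed it in these comparisons. Of these, 14, 11 and 12 were higher and 14, 20 and 20 lower. The share of all genes that separated is not given, so these counts do not set the members apart either. Pcna had 231 and 285 TPM, 309 and 274 TPM and 321 and 338 TPM. The E-box of Max stands in the promoters of 7 members, none of which was called after Max MO. What share of all genes with the E-box was called is not given. With so few members, this count does not set those with the E-box apart, and an action of Max on them was not tested. Among the 14 members with the E2F letters Rfc3 was higher and Pola1, Pold1 and Orc1 were lower in the Max MO ICM, and among the 21 without them Rfc4 and Rpa3 were higher and Mcm2 was lower, while Gins4 has no promoter entry. Of the 26 firing and fork genes 2 rose and 2 fell in the Max MO ICM, where 8.65% and 15.1% of all genes did, and 0 rose and 3 fell in the Mcrs1 MO ICM, where 4.88% and 5.21% did. Of the 9 further nucleotide genes 3 rose in the Max MO ICM and none was called in the Mcrs1 MO ICM.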

How the data were processed

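Smart-seq2 libraries of 68 samples in 16 groups were used, 56 of SCNT embryos and CCs and 12 of fertilized blastocysts. Per the methods and the labels the authors trimmed reads (cutadapt 1.16), aligned them to mm10 with HISAT2 and estimated levels with StringTie. The deposited files give coverage, FPKM and TPM for every locus, and the authors' TPM, read here as a signal because rows outside the reference take part of the total, was the value used. The deposited coverage signal over FPKM gave the depth, 1.00 to 5.17 gigabases. The tables hold no counts, so DESeq2, which the authors used, was not run. The 43 genes, the other lists and the tests were chosen with earlier results of these data known.

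TPM was summed per gene symbol, transformed as log2(TPM + 1) and fitted with limma 3.58.1 (R 4.3.3), once over the 10 SCNT and CC groups (12084 genes whose mean TPM reached 1) and once over the 6 injected groups (11219 genes), without a block. Moderated, two-sided tests with the trend of the variance were adjusted by Benjamini-Hochberg over all genes of a fit, and calls needed an adjusted p below 0.05 together with a 2-fold change or more. Scripts were tested on simulated data. All 43 genes passed the filter in both fits. Genes were named in a comparison, up to 3 per direction, where they were called and the libraries of both groups did not overlap, and further genes named in the text were chosen after their values were seen.

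The replicate numbers come from the sample titles. Same-numbered libraries deviated together in every pair (r of deviations from the group means above 0.1) for 14 hpa against 6 hpa, where the lowest r was 0.14, and for SCNT ICM against SCNT TE, where it was 0.13, and in no other comparison. The highest correlation between any pair of libraries was 0.989, so no pair was taken as 1 library. Alternatives were a pseudocount of 0.1, no filter or a mean TPM of at least 5, rescaling over the reference genes, quantile normalization, the replicate number as a block, each library left out, a fit of only the groups compared, the largest row of a gene in place of the sum, replicates 1 to 3 or 4 to 6 alone and, added after the data were seen, removal of a lowess trend on transcript length (GENCODE vM21, a length for 95.7% of genes). Promoters are those of RefSeq for GRCm38.p6.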

Additional observations from a re-analysis of the deposited data

Results flagged for a closer look

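Within each group of 4 to 10 libraries the highest and lowest values of the members named there, and of the summed TPM of all members, were compared with the nearest other library by Dixon's criterion. It marked 8 of 69 groups of values, where chance marks about 1 in 20. The summed TPM of the 43 genes was 1321 in L2C replicate 1, far below the nearest library at 3059, and this library also had the lowest share of reference genes. It was 6171 in morula replicate 2, above the nearest at 4850. The same morula library held 241 TPM of Mcm7, the next 86.3. L2C replicate 2 stood above its group for Mcm3, with 34.6 TPM where the next had 21.4, and for Gins3, with 27.0 TPM where the next had 4.40. E2C replicate 1 held 16.9 TPM of Gins1, with 8.10 next to it. Gins4 had 29.8 TPM in 6 hpa replicate 6 and 18.0 in the nearest library. Pold2 was apart at 4C, where replicate 4 had 18.1 TPM and the nearest 12.7. No cause was tested for any of these.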

How the results depend on the processing

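Of 1055 values of the 53 named changes under the alternatives, 949 kept their call and direction, 105 kept the direction but were not called, and 1 reversed, Rpa3 in the Max MO ICM, with a log2 change of -0.023 with the length trend removed. Leaving out the length alternative, 29 of the named changes were called in every setting, and with the replicate block all 53 were. The number of called members moved by more than 1.5 times as follows. Quantile normalization gave 5 for E2C against 14 hpa, 15 for 4C against L2C, 3 for morula against 8C, 1 for SCNT ICM against TE, and 0 for either morpholino in the TE. Rescaling gave 4 for 8C against 4C, 1 for SCNT ICM against TE and 3 for the Mcrs1 MO ICM. The replicate block gave 10 for morula against 8C, where the numbers do not pair the libraries, and 1 for SCNT ICM against TE, and moved no other count that far. With no filter the counts were 1 for SCNT TE against morula and 0 for either morpholino in the TE. A fit of only the groups compared gave 14 for 8C against 4C, 11 for morula against 8C, 0 for either morpholino in the ICM and 2 for the Mcrs1 MO TE. This fit does not apply to the interaction terms. With the length trend removed the counts were 14 for 4C against L2C, 8 for SCNT ICM against morula, 4 for SCNT ICM against TE, 4 for the Max MO ICM, 3 for the Mcrs1 MO ICM and 0 for both in the TE.

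Replicates 4 to 6 alone gave 12 for 14 hpa against 6 hpa, 11 for E2C against 14 hpa, 17 for 4C against L2C, 13 for SCNT ICM against morula, 6 for SCNT TE against morula and 1 for SCNT ICM against TE. Replicates 1 to 3 alone gave 6 for E2C against 14 hpa, 11 for SCNT ICM against morula, 5 for SCNT TE against morula and 2 for SCNT ICM against TE. Leaving out each library gave 5 to 12 for 8C against 4C (5 without 4C replicate 1), 5 to 8 for SCNT ICM against morula (8 without SCNT ICM replicate 4, 5 or 6), 1 to 3 for SCNT TE against morula (1 without morula replicate 5 or SCNT TE replicate 1) and 0 to 2 for SCNT ICM against TE (above 0 without SCNT ICM replicate 1, 4, 5 or 6). In the second experiment it gave 4 to 11 for the Max MO ICM (4 without either Max MO ICM library), 0 to 10 for the Mcrs1 MO ICM (0 without either Mcrs1 MO ICM library, 10 and 8 without control ICM replicate 1 and 2) and 0 for both TE comparisons without any of their libraries. A group left with 1 library is assumed to vary like the others. Beyond the smaller number of libraries where some were left out, the cause was not tested. Depth is known in bases only, so no limit of detection in reads can be given, and genes near 1 TPM, such as Pold1 and Pole before L2C, are the least certain.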

Other observations

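The controls of the fertilized experiment and the SCNT blastocysts were made in separate experiments, so their levels are set side by side without a test. The MCM genes together held 472 to 1008 TPM in the SCNT ICM and 1777 to 2918 TPM in control ICM of fertilized blastocysts. Pold1 had 0.0802 to 27.0 TPM with a median of 6.5 in the SCNT ICM and 130.4 and 187 TPM in the controls. Mcm2 had 52.5 to 121 TPM with a median of 95.5 and 378 and 665 TPM. For each of these the SCNT libraries lay below both controls. Rfc2, which was at a median of 0.888 TPM at 6 hpa, had 139 to 292 TPM with a median of 208 in the SCNT ICM and 211 and 233 TPM in the controls. Experiment, strain and kind of embryo cannot be told apart here.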
